A study of Mus musculus with 5 samples.

Results

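T cells and natural killer (NK) cells are lymphocytes that pass through the liver sinusoids, where Kupffer cells reside. Their transcripts were read here in Kupffer cells, the resident liver macrophages, of mice with and without Id3. The description covers 10 genes chosen by name out of 46983 in the count table: the CD3 chains Cd3d, Cd3e and Cd3g, the coreceptors Cd4 and Cd8a, the transcription factors Tbx21 and Eomes, the receptor Ncr1, and the granule genes Nkg7 and Gzma. All 10 were found in the table, and 9 passed the filter on low counts. Eomes did not. The study compared Kupffer cells that lack Id3 (ID3-/-, knockout, 2 libraries, replicates 2 and 3) with Kupffer cells that keep 1 copy (ID3+/-, heterozygous, 3 libraries, replicates 1 to 3), so neither group is wild type. All 5 column names end in "3w", whose meaning is not explained and which may be an age. The age of the mice, the way Id3 was disrupted, the cells in which it was disrupted and any sorting step are not stated in the labels. The labels do not say that the libraries came from separate animals, so p-values measure the spread between these libraries, which may be technical.

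CD3 chains pair with the T cell receptor and carry its signal into the cell, while CD4 and CD8 hold the receptor to MHC class II and class I molecules. NK cells lack that receptor. They are recognised in the mouse by NKp46, the product of Ncr1, and depend on the T-box factors T-bet (Tbx21) and Eomes. Cytotoxic lymphocytes of both kinds store granzymes, of which Gzma encodes granzyme A, in granules that also contain the membrane protein encoded by Nkg7. Id3 encodes an inhibitor that holds E proteins off DNA, and E proteins bind the E-box sequence and direct T cell development. In mice, Cd4 is also known from some dendritic cells and macrophages, and Tbx21 from B cells and dendritic cells.

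The promoters of the CD3 genes and of Tbx21 are shown because Id3 acts on E proteins, which bind E boxes, and because Tbx21 and then Cd3d had the highest ratios of knockout to heterozygous mean among the 10 genes (5.01 and 4.39). Each line gives the 250 bases before the transcription start from RefSeq (GRCm38.p6), 5′ to 3′ on the gene's strand, with E boxes (CANNTG, which reads the same on both strands) in capitals. Cd3d lies on the forward strand (chr9:44981536-44981785), and Cd3g (chr9:44980432-44980681), Cd3e (chr9:45009612-45009861) and Tbx21 (chr11:97115332-97115581) on the reverse strand.
Cd3d: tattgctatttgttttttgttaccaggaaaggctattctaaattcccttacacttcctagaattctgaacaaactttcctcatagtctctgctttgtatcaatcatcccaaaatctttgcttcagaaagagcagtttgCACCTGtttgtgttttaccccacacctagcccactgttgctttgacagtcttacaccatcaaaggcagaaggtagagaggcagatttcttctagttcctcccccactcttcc
Cd3g: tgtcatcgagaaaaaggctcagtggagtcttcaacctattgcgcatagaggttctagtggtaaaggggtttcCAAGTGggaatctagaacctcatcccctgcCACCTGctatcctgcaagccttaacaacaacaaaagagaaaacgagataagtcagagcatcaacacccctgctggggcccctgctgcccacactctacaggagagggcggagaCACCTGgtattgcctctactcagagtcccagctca
Cd3e: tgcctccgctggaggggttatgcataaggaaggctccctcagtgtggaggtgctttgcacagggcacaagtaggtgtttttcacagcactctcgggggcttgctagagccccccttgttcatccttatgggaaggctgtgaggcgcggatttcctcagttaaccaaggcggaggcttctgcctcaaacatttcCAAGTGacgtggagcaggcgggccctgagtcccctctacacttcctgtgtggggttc
Tbx21: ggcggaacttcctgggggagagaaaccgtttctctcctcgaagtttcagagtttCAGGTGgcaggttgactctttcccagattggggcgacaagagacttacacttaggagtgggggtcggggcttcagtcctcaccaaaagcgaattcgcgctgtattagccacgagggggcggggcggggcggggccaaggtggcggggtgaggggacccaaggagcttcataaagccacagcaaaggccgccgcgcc
Cd3g and Cd3d run in opposite directions from starts 1354 bases apart, and Cd3e follows behind Cd3d on the same chromosome. Of the 10 genes, 9 had at least 1 promoter in the table (Cd4 did not), with 10 promoters in all, and 9 of these held 1 to 3 E boxes. Ncr1 had more than 1 promoter. These overlapped nearly wholly and held the same E box, which was thus counted more than once. Among all 32851 mouse promoters of the table, 66.2% held at least 1. The T-box sequence GGTGTGA, searched on both strands, stood in 1 of the 10 promoters, that of Nkg7, and in 3.33% of all promoters. A match describes the letters and not a bound site.

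Gene counts per library came to between 74.8M and 80.9M. Id3 itself was at 1.01 and 1.42 CPM (counts scaled to library size and by the trimmed mean of M values, TMM) in the knockout libraries, against 229, 221 and 256 CPM in the heterozygous ones, so each library matched its label. The Kupffer cell lectin Clec4f reached 15649 and 13582 CPM in the knockout and 16457, 16646 and 17237 CPM in the heterozygous libraries. The lymphocyte genes were far below it. Their highest value in any library was 50.4 CPM, for Cd4. In bulk RNA, a larger number of cells of a type and more RNA per cell cannot be told apart.

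Together the 10 genes made up 110 and 66.4 CPM on library size in the knockout libraries, against 58.3, 42.1 and 34.3 CPM in the heterozygous ones. Both knockout sums lay above all heterozygous sums, and the difference of the means was 43.1 CPM. Without knockout replicate 2 it was 21.5 CPM. Apart from Cd4, the genes made up 60.5 and 26.2 CPM in the knockout libraries and 34.6, 12.4 and 9.72 CPM in the heterozygous ones. The groups then overlapped through heterozygous replicate 1, where Gzma alone was at 14.8 CPM (TMM-normalised). The difference of the means without Cd4 was 24.4 CPM. With 3 libraries against 2 an exact test of a single value cannot give a p below 0.1, so no test was made of the sums. In the test across all genes (edgeR quasi-likelihood test, Benjamini-Hochberg adjusted p under 0.05 over 16436 genes), 2 of the 9 tested genes were higher in the knockout, Cd4 and Tbx21. Of all tested genes 16.4% passed in either direction and 6.41% as higher in the knockout. None of the 9 was lower in this test, where 10.0% of all tested genes were. DESeq2 and limma-voom also called 0 of the 9 lower, beside 2520 and 1694 of all 16436 genes. DESeq2 gave no adjusted p for Gzma. At an unadjusted p under 0.05 (edgeR), 0 of the 9 were lower and 5 higher, beside 5499 of all tested genes in either direction. The knockout values lay wholly above the heterozygous ones for 4 of the 9 (Cd3d, Cd4, Tbx21 and Nkg7), beside 24.6% of all tested genes, and wholly below them for 0, beside 26.9%. The 10 genes did not follow a common order of libraries: 7 were highest in knockout replicate 2, Ncr1 and Gzma in heterozygous replicate 1, and Eomes in heterozygous replicate 2.

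**Figure D1:**
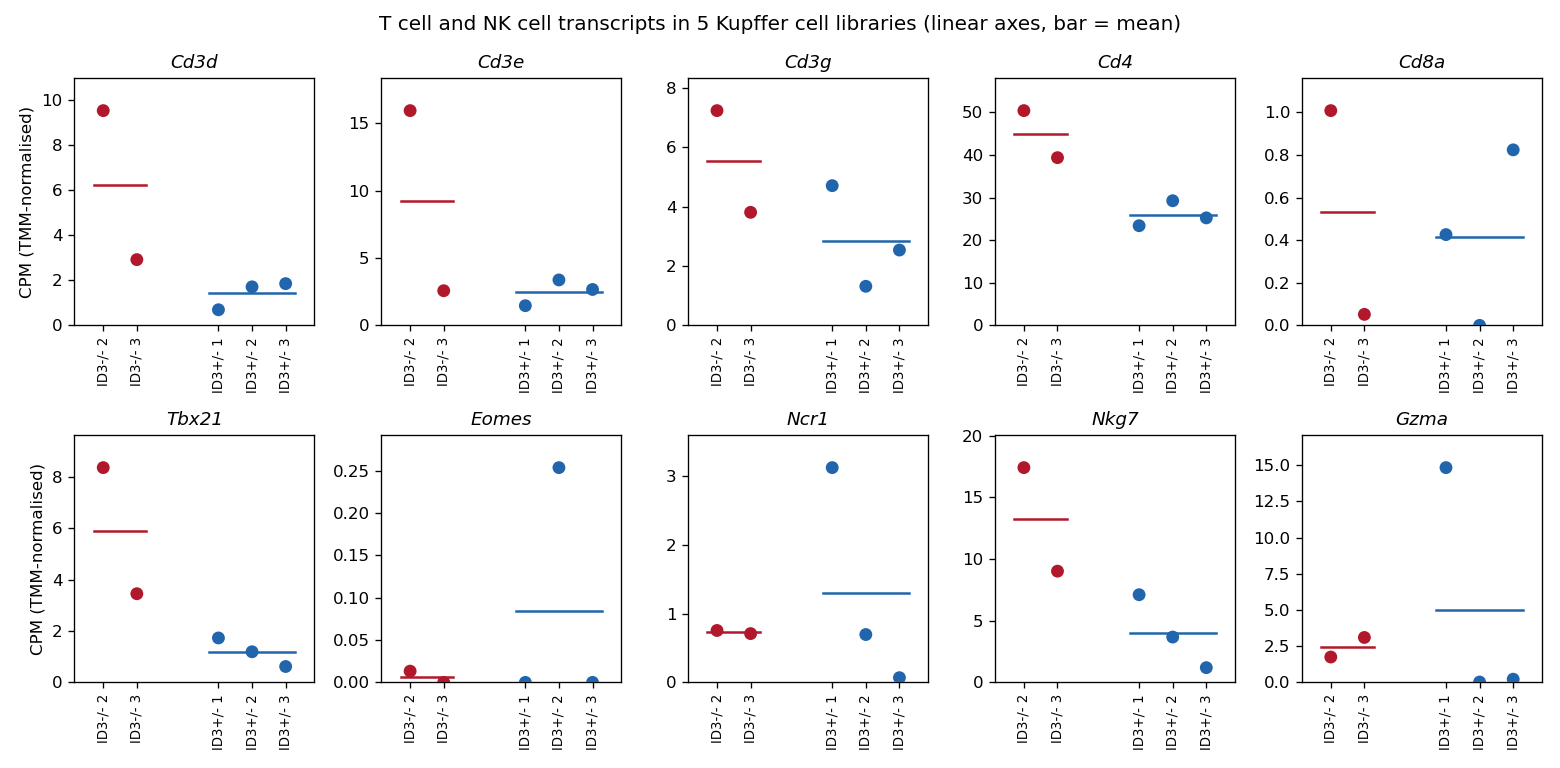
Level of each of the 10 genes (vertical axes, TMM-normalised CPM, linear and scaled per gene) in the 2 ID3-/- libraries (red) and the 3 ID3+/- libraries (blue). Points are libraries and bars are group means. The ID3-/- points lie above all ID3+/- points for Cd3d, Cd4, Tbx21 and Nkg7, while Gzma and Ncr1 are highest in ID3+/- replicate 1.

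Cd3d, the delta chain of CD3, was at 9.54 and 2.92 CPM in the knockout libraries and at 0.694, 1.71 and 1.85 CPM in the heterozygous libraries. The groups did not overlap, but knockout replicate 2 was 3.27 times as high as knockout replicate 3. The log2 fold change was 2.13 ± 0.61 (SE, n = 2 and 3), and the gene did not pass (edgeR adjusted p = 0.0631). The gene passed with DESeq2 (adjusted p = 0.00321), with a filter of 1 CPM in 2 libraries (edgeR adjusted p = 0.03) and without knockout replicate 3 (log2 fold change 2.76, edgeR adjusted p = 0.0302).

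Cd3e, the epsilon chain, which every assembled T cell receptor contains, was at 15.9 and 2.57 CPM in the knockout libraries and at 1.46, 3.37 and 2.66 CPM in the heterozygous ones. Knockout replicate 2 stood alone, while knockout replicate 3 lay inside the heterozygous range. The log2 fold change of 1.89 ± 0.73 (SE, edgeR adjusted p = 0.129) became 0.04 without knockout replicate 2 (edgeR adjusted p = 0.972) and 2.68 without knockout replicate 3 (edgeR adjusted p = 0.0214). DESeq2 called it with all libraries (adjusted p = 0.0191). In GENCODE M21 Cd3e overlaps an antisense gene and a gene on its own strand, and Eomes overlaps an antisense gene. Whether the counting used strand is not stated, so reads of the antisense pairs may not have been told apart. Reads that Cd3e shares with the gene on its own strand cannot be told apart by strand.

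Cd3g, the gamma chain, was at 7.24 and 3.81 CPM in the knockout libraries and at 4.71, 1.32 and 2.54 CPM in the heterozygous ones. The groups overlapped through heterozygous replicate 1, and the log2 fold change of 0.95 ± 0.55 did not pass (SE, edgeR adjusted p = 0.287). The 3 chains thus did not keep their order between libraries: Cd3g had the most counts of the 3 in heterozygous replicate 1 and in knockout replicate 3, and Cd3e in the other three libraries. Summed over the 3 chains, the libraries held 2466 and 720 counts in the knockout and 564, 505 and 514 counts in the heterozygous group. The heterozygous sums lay close together although the single chains spread, and knockout replicate 2 exceeded every other library.

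Cd4, the coreceptor for MHC class II, was the most abundant of the 10 genes and the one with the least spread. It was at 50.4 and 39.4 CPM in the knockout libraries and at 23.4, 29.3 and 25.2 CPM in the heterozygous libraries. Both knockout libraries lay above all heterozygous ones, at 44.9 ± 7.81 (SD, n = 2) against 26.0 ± 3.00 CPM (SD, n = 3), a 1.73-fold difference. The log2 fold change was 0.79 ± 0.16 (SE, edgeR adjusted p = 0.0257). Its direction held in all 15 alternatives (log2 fold changes of 0.60 to 0.97), but the adjusted p was 0.0552 to 0.106 without knockout replicate 2 or without any 1 of the heterozygous libraries.

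Cd4 did not follow the CD3 chains from library to library. Per kilobase of the longest transcript, its level was 3.24 and 8.81 times the mean level of the CD3 chains in the knockout libraries, and 7.90, 9.74 and 7.63 times in the heterozygous libraries. Knockout replicate 2, where the CD3 chains were highest, had the lowest ratio, and knockout replicate 3 lay inside the heterozygous range. On the same per-kilobase scale Cd4 was at 16.2 and 12.7 CPM per kb in the knockout and 7.53, 9.41 and 8.12 CPM per kb in the heterozygous libraries, and the mean of the CD3 chains at 4.999 and 1.44 against 0.952, 0.966 and 1.06 CPM per kb.

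Cd8a, a chain of the coreceptor for MHC class I, was close to the detection limit. It had 76 and 4 counts in the knockout libraries and 35, 0 and 60 counts in the heterozygous libraries. The groups overlapped fully (log2 fold change 0.35 ± 1.69, SE, edgeR adjusted p = 0.918), and the sign turned without knockout replicate 2 (-2.97). The count of 0 in heterozygous replicate 2 allows up to 3 counts, or 0.0386 CPM. Its partner chain Cd8b1, singled out after its values were seen, had 37 and 59 counts against 5, 0 and 5 counts, and did not pass (log2 fold change 3.81 ± 1.097, SE, edgeR adjusted p = 0.0638).

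Tbx21, the gene of T-bet, which drives the type 1 programme of T cells and the maturation of NK cells, was at 8.36 and 3.45 CPM in the knockout libraries and at 1.73, 1.19 and 0.618 CPM in the heterozygous libraries. Both knockout libraries lay above all heterozygous ones, with knockout replicate 2 at 2.42 times knockout replicate 3. The means were 5.90 ± 3.47 (SD, n = 2) and 1.179 ± 0.555 CPM (SD, n = 3), and the log2 fold change was 2.32 ± 0.54 (SE, edgeR adjusted p = 0.0374). The direction held in all 15 alternatives (1.54 to 2.83). The call was lost without knockout replicate 2 (1.54, edgeR adjusted p = 0.166), without any 1 of the heterozygous libraries (edgeR adjusted p = 0.0635 to 0.119) and with offsets for transcript length and GC content (2.13, edgeR adjusted p = 0.0524).

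Eomes, the second T-box factor, which conventional NK cells express and the innate lymphoid cells resident in mouse liver lack, was barely detected. It had 1 and 0 counts in the knockout libraries and 0, 20 and 0 counts in the heterozygous libraries. All but 1 of its 21 counts thus came from heterozygous replicate 2 (95% exact interval of counting error 12.2 to 30.9), and a count of 0 allows up to 0.0371 to 0.0401 CPM. It was too low to be tested. Intervals and limits of this kind cover counting error only, and amplified reads without molecular barcodes vary more.

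Ncr1 was at 0.756 and 0.711 CPM in the knockout libraries and at 3.13, 0.697 and 0.069 CPM in the heterozygous libraries. The knockout libraries did not differ from each other beyond counting error (57 and 55 counts), and the heterozygous ones spread 45.6-fold on both sides of them. Neither the direction nor the size was stable (log2 fold change -0.82 ± 1.26, SE, edgeR adjusted p = 0.709, and 0.93 without heterozygous replicate 1).

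Gzma spread most of all. It had 132 and 240 counts in the knockout libraries and 1218, 2 and 16 counts in the heterozygous libraries, or 1.75 and 3.101 CPM against 14.8, 0.025 and 0.22 CPM. Heterozygous replicate 1 alone exceeded the knockout libraries, and the other two heterozygous libraries lay below them. The log2 fold change of -1.05 ± 1.94 (SE, edgeR adjusted p = 0.763) therefore became 4.30 without heterozygous replicate 1 (edgeR adjusted p = 0.0731). Gzmb, the gene of granzyme B, singled out after its values were seen, had the same highest library, with 86 and 191 counts in the knockout and 923, 51 and 27 counts in the heterozygous libraries.

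Nkg7 was at 17.4 and 9.02 CPM in the knockout libraries and at 7.11, 3.67 and 1.19 CPM in the heterozygous libraries. The groups did not overlap, although knockout replicate 3 and heterozygous replicate 1 lay near each other. The log2 fold change was 1.72 ± 0.68 (SE, edgeR adjusted p = 0.133, and 0.0192 with DESeq2). Per kilobase it was at 19.8 and 10.2 CPM per kb in the knockout and at 8.07, 4.17 and 1.36 CPM per kb in the heterozygous libraries, above Cd4 in knockout replicate 2 and heterozygous replicate 1 and below it in the other three. Gzma and Nkg7, both granule genes, were not in a fixed ratio: per kilobase Gzma was 0.0889 and 0.304 times Nkg7 in the knockout libraries and 1.84, 0.0061 and 0.163 times in the heterozygous ones.

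**Figure D2:**
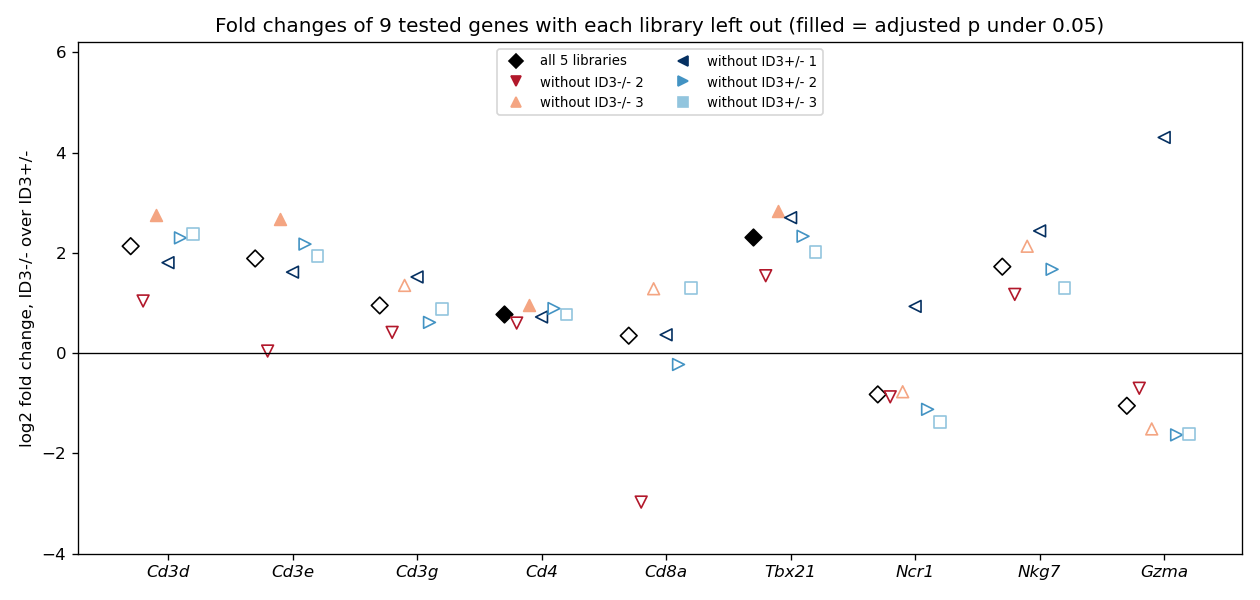
Log2 fold change of ID3-/- over ID3+/- (vertical axis) for the 9 tested genes with all 5 libraries and with each library left out in turn; filled symbols passed at an adjusted p under 0.05. Cd3d, Cd3e, Cd3g, Cd4, Tbx21 and Nkg7 stay above 0 throughout, although Cd3e drops to 0.04 without ID3-/- replicate 2. Gzma and Ncr1 change sign without ID3+/- replicate 1, and Cd8a without ID3-/- replicate 2 or ID3+/- replicate 2.

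Spread within a genotype was high for 8 of the 9 tested genes. The SD of log2 CPM within groups was 0.198 for Cd4, at the 39.5th percentile of all tested genes, and 0.791 for Tbx21, at the 84.7th. It was 2.08 for Ncr1, 2.67 for Cd8a and 3.47 for Gzma. Of the 2 knockout libraries, replicate 2 was higher than replicate 3 in 8 of the 9 tested genes and lower in Gzma. On the log2 scale that difference was 2.62 for Cd3e, at the 97.9th percentile of all tested genes, 1.70 for Cd3d, at the 96.3rd, and 0.36 for Cd4, at the 80.2nd.

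The wider T cell list of 36 genes (the CD3 chains and coreceptors among them) was 255 and 131 CPM in sum in the knockout libraries and 155, 152 and 128 CPM in the heterozygous libraries. Knockout replicate 2 exceeded the others, and knockout replicate 3 lay among the heterozygous libraries. Of the 32 genes tested, 3 were higher, 2 lower and 27 did not pass, so that 15.6% passed, near the 16.4% of all genes. The median log2 fold change was 0.90, beside -0.02 over all tested genes, with 27 values above 0 and 5 below, and 0.85 over the 27 tested genes of the list that are not among the 10. Beside Cd4, the inhibitory adaptor Sit1 rose, to 1.27 and 0.788 CPM against 0.146, 0.33 and 0.151 CPM in the heterozygous libraries (log2 fold change 2.29 ± 0.60, SE, edgeR adjusted p = 0.0487). The fifth passing gene, Trbc1, a constant region of the T cell receptor beta chain that lies outside the naming rule and was singled out after its values were seen, rose by 1.82 ± 0.48 (SE, edgeR adjusted p = 0.0494). The other T cell receptor constant regions of the list did not pass. Trbc2 was at 5.27 and 3.46 CPM in the knockout libraries and at 2.52, 1.98 and 2.94 CPM in the heterozygous ones (0.82 ± 0.31, SE, edgeR adjusted p = 0.125). Trac, of the alpha chain, had the opposite sign, at 2.69 and 1.76 CPM against 1.38, 4.61 and 3.56 CPM (-0.52 ± 0.54, SE, edgeR adjusted p = 0.565). The sequences of Trbc1 and Trbc2 are close to each other, so their values are uncertain. The Sit1 call was lost with library-size scaling, no filter and length and GC offsets (edgeR adjusted p = 0.0504, 0.0572 and 0.0915). The Trbc1 call was lost with limma-voom (adjusted p = 0.0724). It was also lost with robust estimation, no filter and the offsets (edgeR adjusted p = 0.0515, 0.055 and 0.0841). Neither gene passed under the replicate block. With 1 library left out, Sit1 passed in none of the 5 fits (1.91 to 2.79, edgeR adjusted p = 0.0699 to 0.207), and Trbc1 passed in the fit without knockout replicate 3 alone (0.94 to 2.38).

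The costimulatory receptor Icos was among the genes of the list that fell. It was at 24.7 and 26.1 CPM in the knockout libraries and at 49.2, 47.7 and 33.8 CPM in the heterozygous libraries (log2 fold change -0.78 ± 0.19, SE, edgeR adjusted p = 0.0395). The Icos call was lost without either knockout library and without heterozygous replicate 1 or 2, and with length and GC offsets (-0.30). It was also lost with library-size scaling (edgeR adjusted p = 0.0504) and under the replicate block (edgeR adjusted p = 0.198). Ccr7, a chemokine receptor of naive T cells and one of the most abundant genes of the list among those that did not pass, had a log2 fold change of 0.21 ± 0.40 (SE). Trat1 had 0 counts in all 5 libraries, and 3 to 5 of the 36 genes had 0 counts in a given library.

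Of the 40 genes of the NK cell list, 27 could be tested, with 2 higher, 2 lower and 23 that did not pass (14.8% passing). The median log2 fold change was 0.72, with 17 values above 0 and 10 below. Tbx21, described above, was among the higher genes. Of the 23 tested genes of the list that are not among the 10, 1 was higher and 2 lower, with a median of 0.72. S1pr5, a sphingosine phosphate receptor that lets NK cells leave tissues, rose to 5.16 and 1.59 CPM in the knockout libraries, against 0.183, 0.139 and 0.577 CPM in the heterozygous libraries (log2 fold change 3.49 ± 0.78, SE, edgeR adjusted p = 0.0339). Klrk1, the gene of the activating receptor NKG2D, fell to 14.5 and 15.6 CPM in the knockout libraries, against 23.3, 27.4 and 28.1 CPM (-0.80 ± 0.14, SE, edgeR adjusted p = 0.0201). Itga1, an integrin of tissue-resident lymphocytes and of endothelial and stromal cells, fell by 2.22 ± 0.47 on the log2 scale (SE, edgeR adjusted p = 0.0288).

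With length and GC offsets the Klrk1 value became -0.04 (edgeR adjusted p = 0.924) and that of Itga1 -1.46 (edgeR adjusted p = 0.113), and S1pr5 kept its call. Without knockout replicate 2, S1pr5 (2.40) and Klrk1 (-0.75) did not pass, without heterozygous replicate 3 Itga1 (-2.28) did not, and without heterozygous replicate 1 or 2 none of these 3 genes passed. Il2rb, the receptor chain for IL-2 and IL-15 and the most abundant gene of the list that did not pass, was at 56.3 and 23.5 CPM in the knockout libraries and at 15.1, 11.8 and 4.92 CPM in the heterozygous libraries (log2 fold change 1.91 ± 0.53, SE, edgeR adjusted p = 0.0574). Ccl5, a chemokine of cytotoxic lymphocytes, had a log2 fold change of -0.04 ± 0.38 (SE). In sum the NK list was at 157 and 91.2 CPM in the knockout libraries and at 127, 80.9 and 59.9 CPM in the heterozygous libraries, and the groups overlapped.

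**Figure D3:**
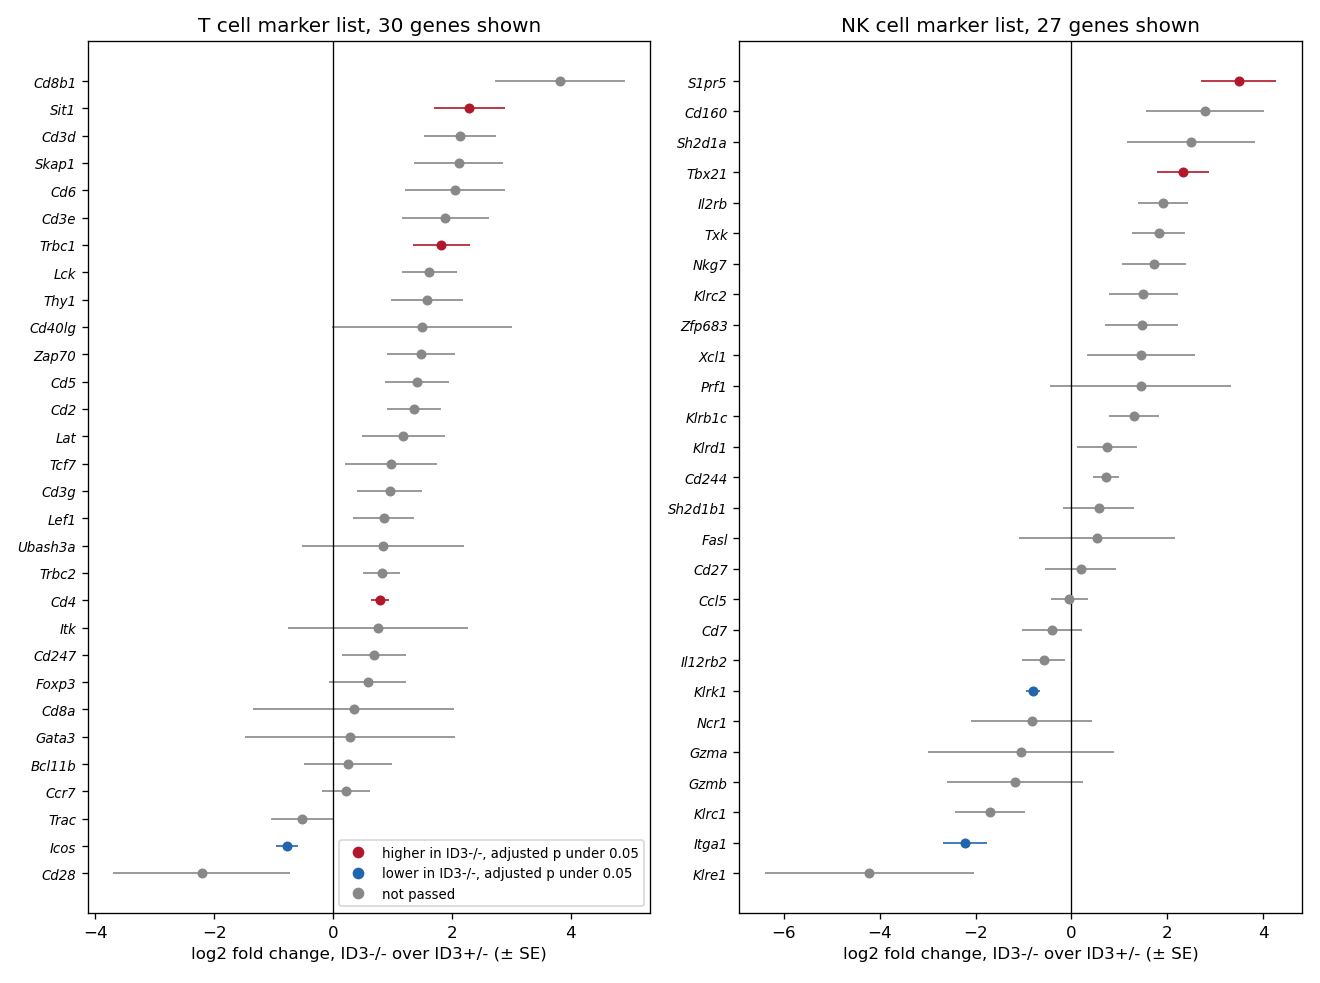
Log2 fold changes of ID3-/- over ID3+/- with SE (horizontal axes) for tested genes of the T cell list (30 of 32, left) and the NK cell list (27, right), sorted by value. Red genes passed as higher in ID3-/-, blue ones as lower, and grey ones did not pass; most points lie right of 0.

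Marker lists of other cell types also differed in sum between these libraries. Summed neutrophil markers (12 genes) were at 350 and 145 CPM in the knockout libraries and at 78.1, 83.2 and 78.7 CPM in the heterozygous libraries. In the knockout libraries 0 and 2 genes were at 0 counts, and in the heterozygous ones 5, 3 and 2. A single gene, not reported here, made up most of the sum in each heterozygous library and in knockout replicate 3. Summed B cell markers (12 genes, none at 0) were at 646 and 415 CPM against 441, 423 and 306 CPM. Knockout replicate 2 was the highest library for both sums, as it was for the CD3 chains and the T cell, NK cell, dendritic cell and Kupffer cell sums. Dendritic cell markers (12 genes) were at 112 and 106 CPM against 108, 102 and 110 CPM, with 1 or 2 at 0 in each library. Hepatocyte markers (12 genes, none at 0) were at 4965 and 11870 CPM in the knockout libraries and at 25302, 28030 and 22518 CPM in the heterozygous libraries, lowest in knockout replicate 2. The 12 monocyte markers (1 at 0 in heterozygous replicate 1) were at 1497 and 1607 CPM against 1123, 1140 and 1388 CPM. Most of that sum came from Treml4 and Fcgr4, which did not pass, and single monocyte markers differed more, in both directions. Of the 12, 3 passed as higher in the knockout and 1 as lower (33.3%, beside 16.4% of all tested genes). Their log2 fold changes were above 0 for 8 and below it for 4. Ly6c2, an antigen of classical monocytes, was at 34.7 and 9.76 CPM in the knockout libraries and at 1.08, 1.08 and 0.412 CPM in the heterozygous ones (log2 fold change 4.69 ± 0.65, SE, edgeR adjusted p = 0.0121), and Ace at 21.2 and 3.70 CPM against 1.94, 0.558 and 0.851 CPM (3.48 ± 0.82, SE, edgeR adjusted p = 0.0381). Both were highest in knockout replicate 2. Ccr2, also in the monocyte list and singled out after its values were seen, differed little between the genotypes. Its values were 3.01 and 4.82 CPM in the knockout libraries and 3.34, 4.97 and 3.06 CPM in the heterozygous ones. Its log2 fold change was 0.05 ± 0.34 (SE, edgeR adjusted p = 0.946). The monocyte marker that passed as lower is not reported here. With 1 library left out, Ly6c2 lost its call without heterozygous replicate 2 (edgeR adjusted p = 0.0566), and Ace passed in the fit without knockout replicate 3 alone, with a log2 fold change of 1.72 and an edgeR adjusted p of 0.185 without knockout replicate 2. Under the replicate block neither passed (edgeR adjusted p = 0.0929 for Ly6c2 and 0.157 for Ace). The sequences of Ly6c2 and Ly6c1 are close to each other, so the Ly6c2 values are uncertain. The 10 endothelial markers were at 1138 and 1160 CPM against 1469, 1316 and 1200 CPM, and the 13 Kupffer cell markers at 77380 and 73386 CPM against 67235, 67001 and 69669 CPM. The part of these shifts in the values of the T cell and NK cell genes was not tested.

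**Figure D4:**
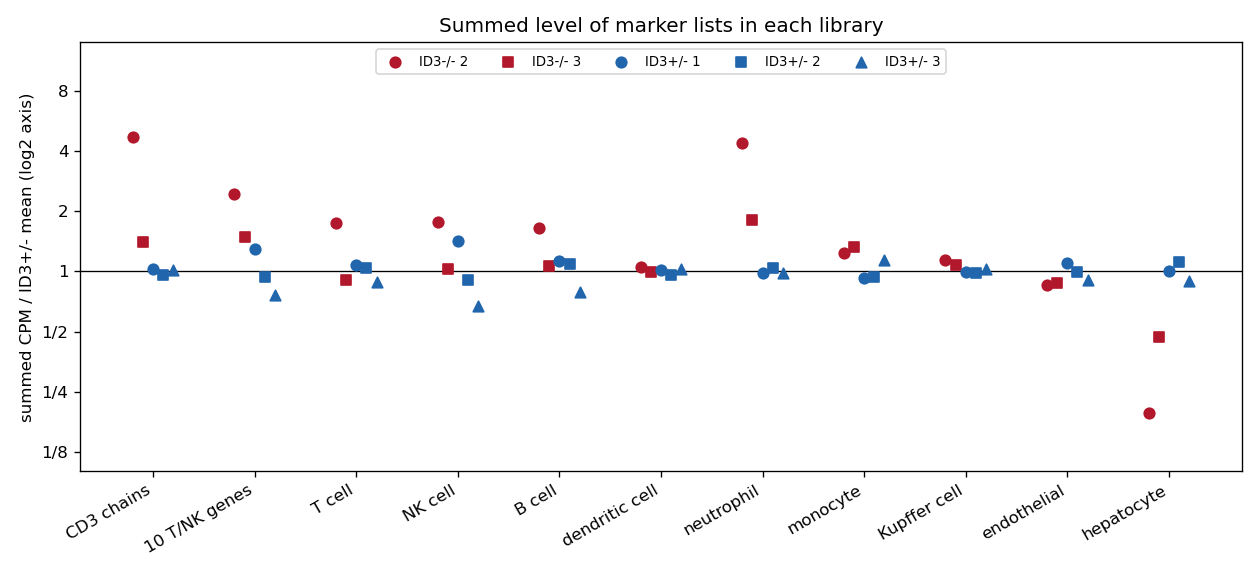
Summed CPM of each marker list divided by its ID3+/- mean (vertical axis, log2 scale) in the ID3-/- libraries (red) and the ID3+/- libraries (blue). ID3-/- replicate 2 is the highest library for every list shown but the monocyte, endothelial and hepatocyte lists. It is the lowest for the endothelial and hepatocyte lists.

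Among the 5 genes whose library profile was most like that of Cd3e, by the root mean square difference of centred log2 CPM over the 5 libraries, were Wnt6 (0.24), Emb (0.33), Gm11827 (0.34) and Mtx3 (0.38). Each was highest in knockout replicate 2, such as Emb with 5.53 and 1.551 CPM in the knockout libraries and 0.645, 2.205 and 1.39 CPM in the heterozygous libraries. For Nkg7 they were Gm13391 (0.17), AA414768 (0.28), Mapk13 (0.30), Plin1 (0.31) and Il2rb (0.32), of which Il2rb was the one above 2 CPM in any library. These lists describe likeness over 5 points, and no gene of the CD3 complex stood among the 5 closest to Cd3e.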

How the data were processed

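The authors deposited raw counts per gene, 1 column per library, for which the submitters' processing notes name HTSeq 0.5.4 along with DESeq 1.18.0, R 3.1.2 and mm9. Per the labels' protocols, RNA was amplified with SMART-seq V4. No source used here gives the aligner, the annotation release or the strand setting. Entries that name no gene (40.0% and 42.8% of the knockout and 47.0%, 47.5% and 48.6% of the heterozygous totals) did not enter library sizes or tests.

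Knockout was compared with heterozygous over all 5 libraries with the quasi-likelihood test of edgeR 4.0.16 (R 4.3.3, TMM, filterByExpr, 3 residual degrees of freedom). The SE is the log2 fold change divided by the square root of F. Levels are TMM-normalised CPM, sums of lists are CPM on library size, and levels per kilobase use the longest GENCODE M21 transcript. Alternatives were DESeq2 1.42.0, limma-voom (limma 3.58.1), other scalings and filters, robust estimation, a replicate block and leaving out each library. Length and GC offsets were added after the data were seen.

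The genes and the 9 marker lists were chosen with earlier results of these data known. Named are the 10 genes, and from each list up to 4 passing genes of smallest p and the 2 most abundant others, of which the text gives those of the T cell and NK cell lists and 4 genes of the monocyte list (some genes are not reported here), and for Cd3e and Nkg7 the 5 genes of the most similar profile. On simulated data for this comparison (on average 15867 genes tested, 200 changed, 3 runs), edgeR recovered 32.0% of the changed genes at an absolute log2 fold change of 1 and 63.3% at 2, with 4.87% of its calls false, and DESeq2 recovered 47.7% and 75.3%, with 34.1% false.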

Additional observations from a re-analysis of the deposited data

How the results depend on the processing

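The 2 genes that passed, Cd4 and Tbx21, passed under RLE, upper-quartile and library-size scaling, under both other filters, with robust estimation, with DESeq2 and with limma-voom. The number of the 9 genes passing was 5 with DESeq2, 1 with length and GC offsets, 0 with the replicate block, and 0 to 4 when 1 library was left out, with 0 in each fit but the one without knockout replicate 3; at an unadjusted p under 0.05 these edgeR fits with 0 gave 2 to 6, and the block 4. In the fit to all libraries 5 of the 9 were under that unadjusted p, beside 5499 of all 16436 tested genes. The shares of all genes under it in the other fits are not given here. At the adjusted p, 2698 of all genes passed, against 4581 with DESeq2, 1509 with the offsets and 1 with the block. With 1 heterozygous library left out, 335 to 2540 passed. The T cell list gave 5, against 3 with library-size scaling, 3 with no filter, 11 with DESeq2, 2 with the offsets, 0 with the block, and 0 to 11 with 1 library left out. The NK cell list gave 4, against 7 with DESeq2, 2 with the offsets, 0 with the block, and 0 to 6 with 1 library left out. The replicate block left 1 residual degree of freedom. The replicate numbers are not stated to pair libraries: deviations from the group means correlated at -0.03 for the libraries numbered 2 and at -0.06 for those numbered 3. The difference of the summed levels ranged from 21.5 to 64.7 CPM with 1 library left out, lowest without knockout replicate 2.

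Signs turned for some of the genes that did not pass. Cd3d, Cd3e, Cd3g and Nkg7 did not pass either and kept their sign in all 15 alternatives. Ncr1 was at 0.34 with limma-voom, at 1.57 with the block and between -1.38 and 0.93 with 1 library left out. Gzma was at 2.22 with limma-voom, at 4.57 with the block and between -1.63 and 4.30 with 1 library left out. With 1 library left out, Cd8a ranged from -2.97 to 1.30, Ccr7 from -0.68 to 0.77 and Fcgr4 from -0.24 to 0.098. Ccl5 was at 0.025 with upper-quartile scaling, at 0.24 with the block and between -0.54 and 0.34 with 1 library left out. The causes were not tested. Where leaving out a library left the knockout with 1, that library was assumed to vary like the heterozygous ones.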
